A study of Mus musculus with 2 samples.

Results

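The genes described here are the splicing factors and RNA-binding proteins whose symbols start with Srsf (10 genes), Snrp (12), Sf3a (3), Sf3b (5), Prpf (13) or Hnrnp (20). They number 63 of the 32285 genes counted in both libraries. The rule used gene names only and no measured value, and it left out 2 of the 65 genes with these name starts. Each of the 63 was followed as a raw unique molecular identifier (UMI) count, one UMI standing for one captured transcript 3′ end, across the cell types of mouse bone marrow.

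Femoral marrow of 1 control mouse and 1 double-knockout mouse was flushed with PBS and profiled by droplet single-cell RNA-seq with Chromium 3′ v3 chemistry. The control, labelled WT, carried Ddx41 fl/fl without VavCre and with wild-type cGas. The double knockout (DKO) carried VavCre:Ddx41 fl/fl and cGAS-/-, so that VavCre, which is active in hematopoietic cells, deleted Ddx41 on a background labelled as lacking the DNA sensor cGAS. Both mice were 2 months old, and the floxed Ddx41 alleles were shared by both. With 1 library per genotype, every DKO and control value below compares 2 mice and not 2 conditions, no test between genotypes was possible, and each interval (95%, exact binomial or Poisson) covers counting error only.

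Pre-mRNA splicing is carried out by the spliceosome, which assembles anew on each intron from small nuclear ribonucleoproteins (snRNPs). The Snrp genes encode the Sm ring that surrounds each spliceosomal snRNA and proteins specific to the U1 and U2 particles, the Sf3a and Sf3b genes encode subunits of the U2 snRNP that grip the branch point, and the Prpf genes encode factors of the U4/U6.U5 tri-snRNP and of the catalytic steps. The Srsf proteins bind exons and promote their inclusion, whereas the Hnrnp proteins coat nascent transcripts and often oppose it. Red-cell precursors shut down transcription, rewire splicing late in maturation and finally expel the nucleus.

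In all, 18668 control cells (119098859 UMIs, median 4882 per cell) and 13719 DKO cells (114664975 UMIs, median 6900) were kept, and 75 barcodes occurred in both libraries. The cells fell into 28 clusters and 15 classes, each class called "-like" after its marker genes. The deleted gene was lower but present in the DKO library, with 2415 Ddx41 UMIs against 916, or 20.3 against 7.99 CPM (UMIs per 1000000 UMIs of the cells named), which is -1.34 (-1.46 to -1.23) as a log2 ratio of DKO to control. Cgas, labelled as deleted in the DKO mouse, had 1613 against 830 UMIs (-0.90, -1.03 to -0.78), but in granulocyte-monocyte progenitor-like cells 40.4 against 30.8 CPM (-0.39, -0.59 to -0.20) and in immature neutrophil-like cells 18.6 against 17.3 CPM (-0.11, -0.37 to 0.15). Which part of Cgas the allele removes is not given in the sources used here, so 3′ counts may not check it, and "the DKO library" below means the library labelled so. Hemoglobin transcripts made up 85.1% of the UMIs of control late erythroid-like cells and 87.9% of those of DKO ones, and also 40.4% in the macrophage-like class of each library, so levels are given in CPM, or in CPM of the UMIs outside hemoglobin genes wherever maturation is followed. Each transcript is counted once at its 3′ end, so the levels of genes are compared as molecules and not divided by length.

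Summed over the 63 genes, the control level ran from 15389 CPM in pro-B or pre-B-like cells and 14917 CPM in granulocyte-monocyte progenitor-like cells down to 509.9 CPM in late erythroid-like cells. In the DKO library the same classes held 15075, 14086 and 293 CPM. The highest and lowest classes therefore differed 30.2-fold in the control and 51.5-fold in the DKO library, and 4.78-fold and 6.59-fold once hemoglobin UMIs were set aside. Of the 60 genes with enough UMIs to compare, 25 had their highest control level in pro-B or pre-B-like cells and 18 in granulocyte-monocyte progenitor-like cells, and the highest class was the same in both libraries for 47. The share of all genes with their highest level in these classes was not counted, so these numbers may not be particular to the families. In CPM of all UMIs the lowest class was late erythroid-like for 59 of 60 in each library, the exception being Prpf18. Hemoglobin took up 85.1 and 87.9% of the UMIs of that class, and the share over all genes was not counted. Outside hemoglobin the Snrp sum was lowest in mature neutrophil-like cells in both libraries, at 322 and 232 CPM. The Sf3b sum was lowest in late erythroid-like cells in both, at 162 and 95.1 CPM.

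**Figure D1:**
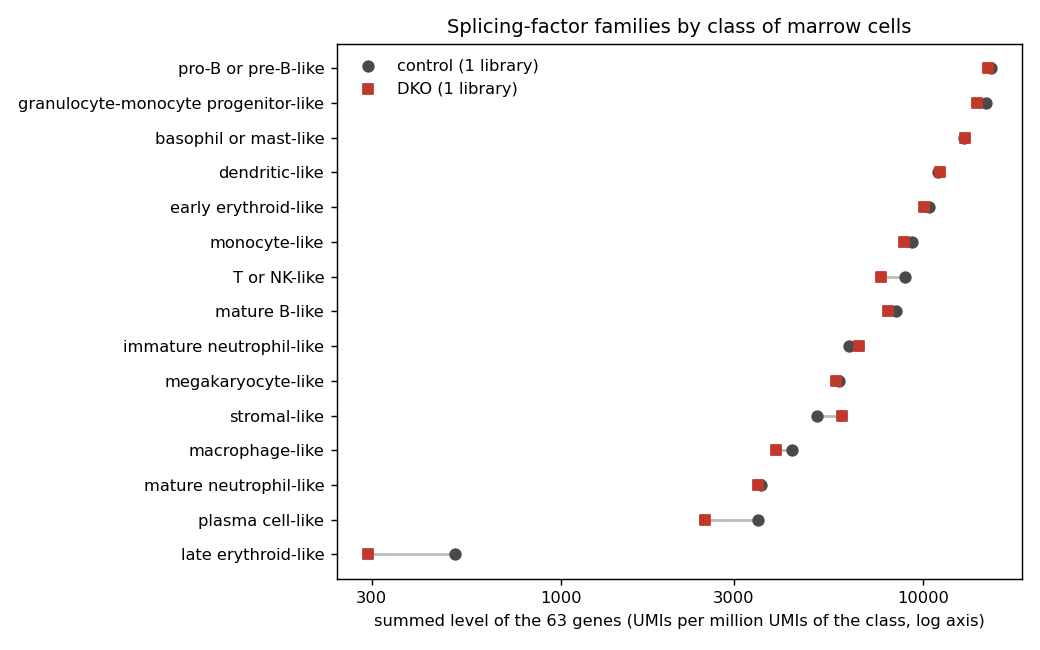
Summed level of the 63 genes in each marrow class (CPM, log axis), control and DKO libraries side by side, 1 library each, as points joined by a line. Pro-B or pre-B-like and progenitor-like cells stand at the top and late erythroid-like cells at the bottom, at 509.9 and 293 CPM.

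Over all cells the most abundant member was Hnrnpa2b1, which encodes a splicing repressor and mRNA-transport protein, at 467.7 CPM (control) and 443.1 CPM (DKO). Hnrnpf, whose protein binds G-rich stretches of RNA, followed in its family at 389 and 306.5 CPM, and Hnrnpa3 at 296.9 and 271.1 CPM. The Sm ring gene Snrpg stood at 346.6 and 286.7 CPM, Snrpe at 278.4 and 223.2 CPM, and Snrpf at 251.6 and 190 CPM. Each of these genes had a lower CPM in the DKO library, whose mix of cells also differed.

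Among the exon-binding proteins, Srsf3, which also serves as an mRNA export adaptor, led with 343.9 and 276.9 CPM, before Srsf5 with 195.6 and 143.8 CPM and Srsf7 with 178.7 and 131.2 CPM. In the U2 particle the small branch-point protein gene Sf3b6 had 179 and 118 CPM, Sf3b2 145.3 and 136.4 CPM, and Sf3b5 134.2 and 86.8 CPM. The Sf3a genes were lower throughout, with 40.9 and 33.0 CPM for Sf3a3, 27.4 and 25 CPM for Sf3a1, and 20.9 and 19.2 CPM for Sf3a2. Among the Prpf genes, Prpf38b stood at 53.8 and 61.6 CPM and the kinase gene Prpf4b at 52.2 and 53.2 CPM. Thus the Hnrnp, Snrp and Srsf genes carried most of the UMIs, and the subunits of the Sf3a complex few.

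Families differed in how sharply they varied between classes. Outside hemoglobin UMIs, the Snrp sum ranged from 4296 CPM in control granulocyte-monocyte progenitor-like cells to 322 CPM in mature neutrophil-like cells, a 13.3-fold range, and from 3744 to 232 CPM in the same classes of the DKO library, 16.1-fold. The Prpf sum ranged only 3.22-fold in the control and 4.55-fold in the DKO library. Hnrnp sums spanned 4.51-fold and 6.94-fold, and Srsf sums 4.16-fold and 5.37-fold. Across the 28 clusters, the Spearman rho between a family's sum and the sum of cycling genes was highest for Srsf, at 0.525 (control) and 0.615 (DKO), lowest for Sf3b, at 0.182 and 0.258, and 0.333 and 0.507 for all members. This is a description over clusters that share libraries, depth and base composition.

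Single members stood out for where they were found. Snrpd1, a core Sm protein gene, was highest in granulocyte-monocyte progenitor-like cells, with 560.9 CPM (control) and 425.8 CPM (DKO), 4.02 and 4.59 times its level in the median class. Srsf10, whose protein represses splicing when dephosphorylated, was the only member whose CPM of all UMIs was highest in early erythroid-like cells, at 185.9 and 203.7. Hemoglobin made up 29.3 and 33.7% of the UMIs of that class, and single members were not ranked outside hemoglobin. On that scale the Srsf sum was highest in early erythroid-like cells in the DKO library (2604 CPM). In the control it was highest in pro-B or pre-B-like cells (2678 CPM). Snrpb2, of the U2 particle, peaked in monocyte-like cells in both libraries, and Hnrnpll, known for controlling CD45 splicing in lymphocytes, in mature neutrophil-like cells at 90.9 and 113.6 CPM.

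The 3 members too rare to compare were still not spread evenly. All 17 control UMIs of Srsf12 and 11 of its 14 DKO UMIs fell in T or NK-like cells, at 5.75 and 5.83 CPM there. Prpf40b, with 136 and 120 UMIs in all, was highest in stromal-like cells at 11.0 and 21.9 CPM, 8.49 and 9.21 times its median class. Snrpn, the imprinted Sm protein gene that shares its transcript with Snurf, had 5 and 7 UMIs in all, of which 3 and 6 were in plasma cell-like cells. The Snrpn counts are close to the 3 UMIs that a count of 0 allows, and no fold is drawn from them.

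Most members were lower in mature than in immature cells of each lineage that could be followed. Along the erythroid path, cells were ordered by the hemoglobin share of their UMIs into stages of under 15% (stage 1), 15 to 40% (2), 40 to 75% (3), 75 to 90% (4) and over 90% (5). Between stage 1 and stage 3 the interval of the log2 ratio lay below 0 in both libraries for 52 of 60 members, beside 54.4% of the 4973 genes compared, and above 0 for 3, beside 28.6%. From granulocyte-monocyte progenitor-like to mature neutrophil-like cells 52 of 58 members were lower (51.6% of genes) and 4 higher (37.9%), and in the first step of that path, to immature neutrophil-like cells, 53 of 58 were lower (58%) and none higher (26.5%). From progenitor-like to monocyte-like cells 48 of 59 were lower (36.6%) and 3 higher (36.6%), and from pro-B or pre-B-like to mature B-like cells 46 of 59 were lower (34.8%) and 2 higher (29.1%). In all 4 paths, 38 of 57 members were lower, or 66.7%, against 868 of 3753 genes, or 23.1%. The members were left out of the clustering, but classes and stages come from the same cells, so these are descriptions within each library with no test.

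The Snrp family had the least of its starting level left in each path and library, except that the Sf3a sum was marginally lower in DKO monocyte-like cells (52.2% beside 52.6%). Its sum at erythroid stage 3 was 25% (control) and 27.1% (DKO) of that at stage 1, whereas the Hnrnp sum kept 54.0 and 59.5%, the Prpf sum 57.3 and 57.6%, and the Srsf sum 69.0 and 70.5%. In mature neutrophil-like cells the Snrp sum was 7.5 and 6.2% of its progenitor level, beside 48.8 and 49.1% for Prpf. Snrpd1 went from 570 to 14.1 CPM (control) and from 432 to 5.76 CPM (DKO). Snrpf, another Sm ring subunit, went from 658 to 17.7 and from 596 to 7.12 CPM. In the monocyte path 54.2 and 52.6% of the Snrp sum remained, and in the B path 46.1 and 43.0%. Of the 11 Snrp genes compared, 10 were lower in all 4 paths and both libraries, the exception being Snrpb2, which stood at 107 and 106% of its progenitor level in monocyte-like cells. Of the reference lists, ribosomal protein genes stood at 22.4 and 21.2% at erythroid stage 3, and cycling genes at 208 and 221%.

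**Figure D2:**
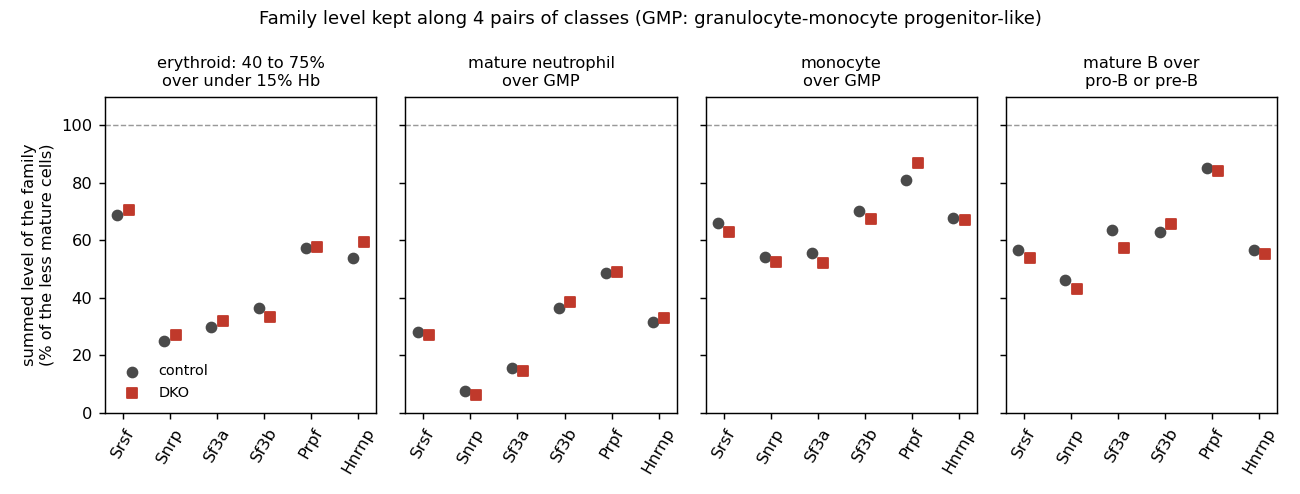
Percent of each family's starting level left at the end of the erythroid, granulocyte, monocyte and B cell paths (summed CPM outside hemoglobin genes, as % of the less mature cells), 1 mark per library. Snrp lies lowest in every panel for the control, with 7.5 and 6.2% left in mature neutrophil-like cells.

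Against this, 3 members were higher at erythroid stage 3 and at the end of the granulocyte and monocyte paths in both libraries: Prpf18, Srsf5 and Hnrnph2. They are 5.17% of the 58 members with values in those paths, and 8.7% of the 3873 genes were higher in all 3, so their number is not particular to these families. Prpf18, a factor for the second step of splicing, stood at 54.5, 89.5, 135, 111 and 62.8 CPM in erythroid stages 1 to 5 of the control and at 58.0, 81.9, 142, 154 and 71.0 CPM in DKO ones. Its highest value thus fell at stage 3 in the control and at stage 4 in the DKO library. The DKO values of these stages, 142 and 154 CPM, lie close, and whether the peak differs between the libraries was not tested. Its stage 3 to stage 1 log2 ratio was 1.31 (1.10 to 1.52) in control and 1.30 (1.12 to 1.47) in DKO cells. In the granulocyte path Prpf18 went from 28.8 to 60.9 CPM and from 36.3 to 61.6 CPM, and in monocyte-like cells it stood at 145 and 147% of its progenitor level.

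Srsf5, an exon-binding SR protein gene, stood at 288, 336, 483, 265 and 141 CPM in the 5 control erythroid stages and at 262, 275, 371, 280 and 85.9 CPM in the DKO ones, with its peak at stage 3 in both. Its stage 3 to stage 1 log2 ratio was 0.75 (0.65 to 0.84) and 0.50 (0.41 to 0.59). At stage 5 Srsf5 stood below its stage 1 level in both libraries, at 141 and 85.9 CPM beside 288 and 262 CPM. In mature neutrophil-like cells it was at 127% of its progenitor level in both libraries, and in monocyte-like cells at 129 and 118%. Hnrnph2, a relative of Hnrnpf, reached 133 and 120% in erythroid stage 3, 135 and 141% in mature neutrophil-like cells, and 114 and 119% in monocyte-like cells. The opposite extreme was Prpf19, the ubiquitin ligase of the complex that activates the spliceosome, which went from 79.1 CPM at stage 1 to 4.17 CPM at stage 3 in control cells and from 101 to 4.56 CPM in DKO cells. Snrpa, the U1 snRNP protein that binds a loop of U1 RNA, kept 8.10 and 7.22%. In the B path none of the 3 was higher in both libraries, where Prpf6, a tri-snRNP bridging factor, stood at 145 and 131% and Prpf39 at 139 and 156%.

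**Figure D3:**
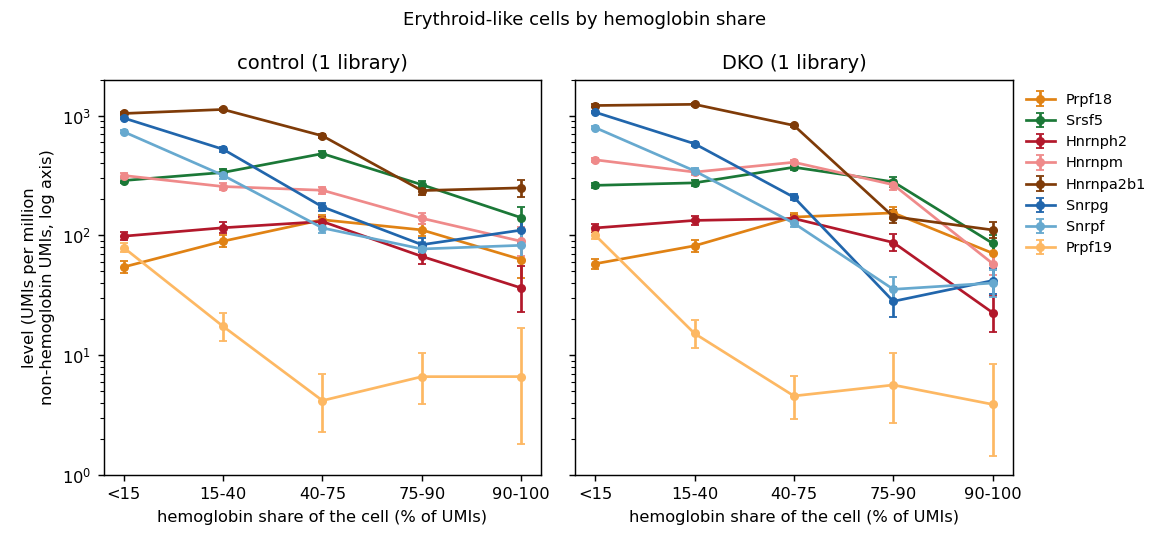
Level of chosen members (CPM outside hemoglobin, log axis) through 5 erythroid stages of rising hemoglobin share, control and DKO libraries, with exact Poisson 95% intervals. Prpf18 peaks in the middle stages while Prpf19 goes from 79.1 and 101 CPM to 4.17 and 4.56 CPM by stage 3.

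The start regions of 4 members at these extremes are shown because the members move apart in the same cells, Prpf19 and Snrpa downward and Srsf5 and Hnrnph2 upward. They were chosen after the values were seen. Each line gives the 250 bases before the annotated start from RefSeq on GRCm38.p6, 5′ to 3′ on the gene's strand, with matches to CCGGAA, the core recognized by ETS factors, to CCAAT and to TATAAA on either strand in capitals. Of the 63 members, 55 had an entry.
Prpf19, chr19:10894981-10895230, plus strand: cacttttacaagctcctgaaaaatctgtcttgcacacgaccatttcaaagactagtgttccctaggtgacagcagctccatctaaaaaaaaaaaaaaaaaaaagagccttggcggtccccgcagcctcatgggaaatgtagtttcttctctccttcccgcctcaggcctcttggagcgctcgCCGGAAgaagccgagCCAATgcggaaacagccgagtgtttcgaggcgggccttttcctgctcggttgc
Snrpa, chr7:27196272-27196521, minus strand: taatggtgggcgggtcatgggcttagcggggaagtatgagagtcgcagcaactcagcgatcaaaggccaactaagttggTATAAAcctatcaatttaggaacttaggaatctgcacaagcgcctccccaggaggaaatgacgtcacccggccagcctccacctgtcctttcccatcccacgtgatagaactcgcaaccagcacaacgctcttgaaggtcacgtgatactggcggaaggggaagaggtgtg
Srsf5, chr12:80945249-80945498, plus strand: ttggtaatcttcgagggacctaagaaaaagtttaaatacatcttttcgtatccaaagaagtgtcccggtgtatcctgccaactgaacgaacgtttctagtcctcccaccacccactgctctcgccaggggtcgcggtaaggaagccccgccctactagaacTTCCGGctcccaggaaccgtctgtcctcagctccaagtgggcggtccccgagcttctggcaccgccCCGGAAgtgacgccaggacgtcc
Hnrnph2, chrX:134600929-134601178, plus strand: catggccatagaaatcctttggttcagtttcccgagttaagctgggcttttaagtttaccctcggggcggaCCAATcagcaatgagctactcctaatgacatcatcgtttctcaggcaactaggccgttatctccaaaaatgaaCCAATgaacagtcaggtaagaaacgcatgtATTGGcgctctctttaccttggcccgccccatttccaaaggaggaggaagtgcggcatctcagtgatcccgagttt

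Prpf19 held 1 CCGGAA and 1 CCAAT, Snrpa 1 TATAAA, Srsf5 CCGGAA on both strands, and Hnrnph2 CCAAT 3 times. Motifs were not counted by direction of change over the 55 members, so these 4 picked genes cannot relate a motif to a direction. Prpf19 and Snrpa each have 2 annotated starts, of which 1 was searched. Over the 55 members, 26 held CCGGAA (47.3%, against 12.2% of all 27025 start regions), 26 CCAAT (47.3% against 34.5%) and 4 TATAAA (7.27% against 13%). CGCGAGA was in 4 members (7.27% against 2.2%), and the palindromic motif of the nuclear respiratory factor NRF1 in none (0.781% of all). The median number of CG dinucleotides was 19 in members and 6 in all start regions. A match describes the letters in the window and no binding was measured.

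Late erythroid-like cells were compared with early ones in each library relative to the median of all genes (-1.65 control, -2.22 DKO, log2). Relative to that shift the median member stood at -0.76 (control) and -1.01 (DKO). In the control 32 of 58 members were at least 1.5-fold lower than it (33.2% of all genes) and 6 at least 1.5-fold higher (36.4%), and in the DKO library 39 of 59 were lower (37.5%) and 6 higher (38.8%). Prpf18 stood highest, 2.39 (control) and 3.01 (DKO) above the shift, followed by Srsf5 at 1.59 and 1.98, Hnrnpm at 1.11 and 1.76, Hnrnph2 at 1.09 and 1.55 and Hnrnpc, which binds uridine tracts, at 0.52 and 0.87. Lowest were Snrpa1 of the U2 particle at -1.84 and -1.79, Snrpd1 at -1.59 and -1.88, Snrpe at -1.58 and -1.97, Srsf10 at -1.47 and -1.99, and Snrpg at -1.42 and -2.13. Not all snRNP genes were that low, for Sf3b6 stood at -0.42 and 0.05 and Snrpc at -0.05 and 0.21. The late cells of the libraries also differed in their mix of hemoglobin stages, as given below, and the part of this mix was not tested.

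Free RNA in the droplets bears on these low levels. The empty droplets of the control library, whose barcodes were deposited, held the members at 8861 CPM. Scaled to the granulocyte genes S100a8 and S100a9, free RNA could make up at most 67.9% of the members' UMIs in control late erythroid-like cells but 4.34% in early ones. By stage the ceiling was 5.61, 4.33, 10.4, 60 and 80.3% in control cells and 1.75, 3.11, 5.0, 32.3 and 74.4% in DKO cells, the DKO values resting on the empty droplets of the control library, since no empty droplets of the DKO library were analysed here. Single scarce genes differ from the sum: at control stage 3 the ceiling was 67.3% for Prpf19 (14 UMIs) and 46.8% for Snrpa (30 UMIs), but 3.28% for Prpf18, 4.24% for Srsf5 and 5.75% for Hnrnph2. The ceiling for single genes in control late erythroid-like cells was lowest for Prpf18 at 10.0% and Srsf5 at 18.1%, 28.3% for Hnrnph2 and 32.1% for Hnrnpm, and reached 75.5% for Hnrnpa2b1, 80% for Srsf3 and 94.1% for Snrpg. With the ceiling taken out, the members summed to 186 CPM (control) and 167 CPM (DKO) in late erythroid-like cells, and the median member relative to all genes, late over early, was -1.95 and -2.23 in place of -0.76 and -1.01.

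Between the libraries few members differed beyond 1.5-fold. Each member was set, class by class, against the median DKO to control ratio of all genes in that class, which lay between -0.23 and 0.34. Over the 15 classes, 48 of 726 member-by-class values were at least 1.5-fold lower than that median, which is 6.61% beside 6.22% of all genes' values, and 3 were at least 1.5-fold higher, 0.413% beside 3.28%. The median member lay below the median of all genes in 14 of 15 classes, most in late erythroid-like cells (-0.44, where 4 members passed the minimum level) and T or NK-like cells (-0.29). Early erythroid-like cells were the exception, with the median member 0.02 above. This direction depended in part on the reference. Against genes of like transcript length the median member was below in 13 and above in 2 of the 15 classes. Against genes of like genomic span it was below in 6 and above in 9 of the 15 classes. With late erythroid cells taken as those of at least 50% hemoglobin UMIs the late value was 0.08.

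**Figure D4:**
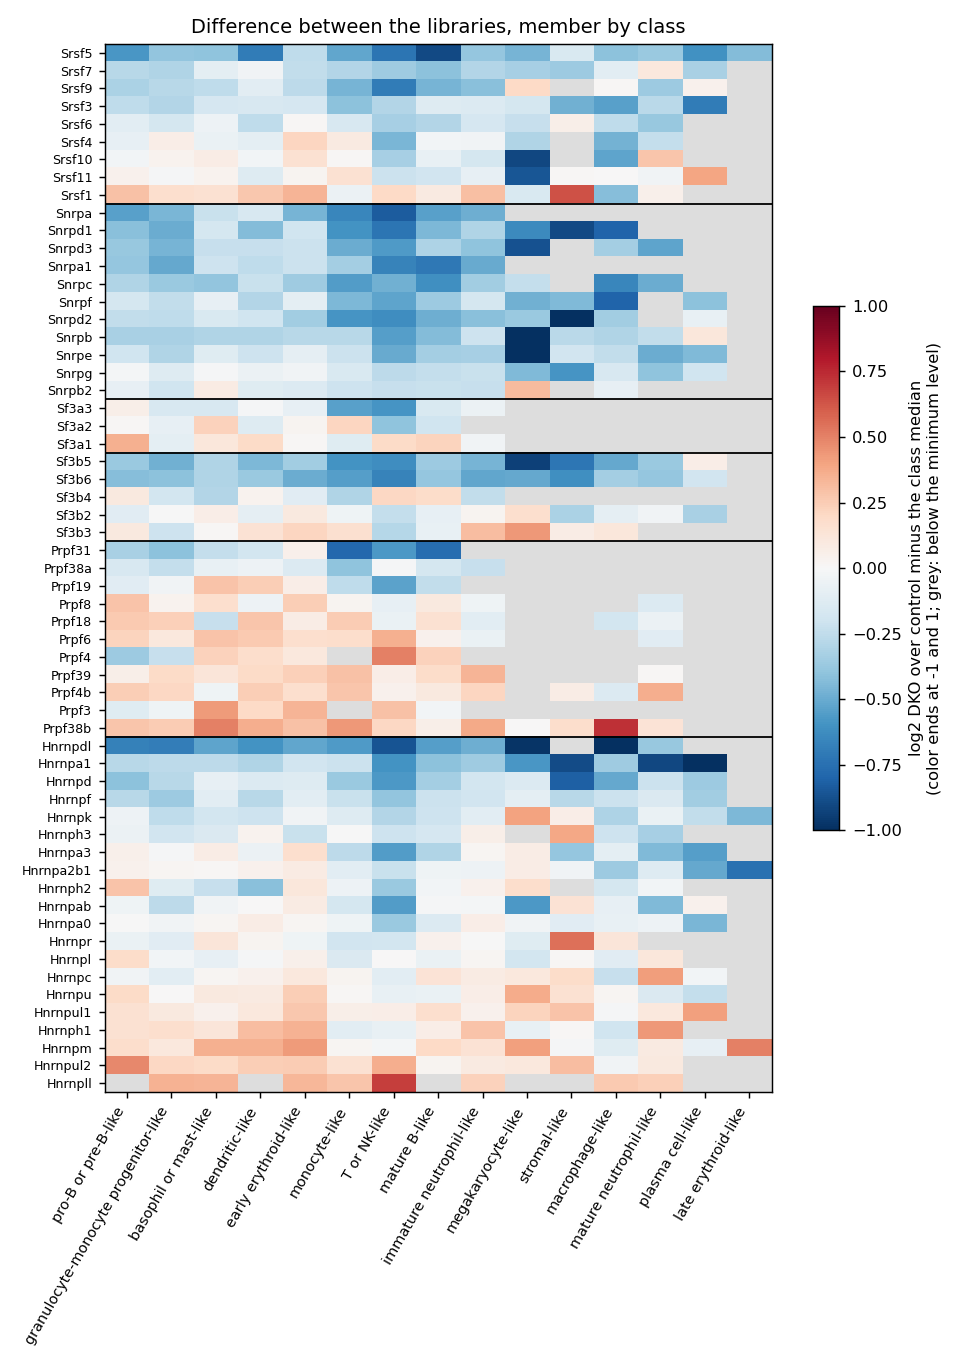
Log2 ratio of DKO to control relative to the class median of all genes, as a color for members (rows, by family) and class (columns), with grey where a member was below the minimum level. Most Snrp rows are blue, that is lower in the DKO library, and most Prpf rows pale or red.

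The values past 1.5-fold were concentrated in a few classes. In T or NK-like cells 11 of 60 members were lower (10.2% of all genes), among them Hnrnpa1, Snrpd1 and Srsf9, in megakaryocyte-like cells 8 of 42 (12%), and in stromal-like cells 7 of 36 (13.7%). These are classes in which a larger share of all genes was also lower. In monocyte-like cells 5 of 58 members were lower (6.48%), in macrophage-like cells 4 of 46 (8.24%), in mature B-like cells 4 of 59 (5.35%), in plasma cell-like cells 3 of 25 (20%) and in dendritic-like cells 2 of 59 (7.15%). A single member was lower in granulocyte-monocyte progenitor-like cells (Hnrnpdl, 2.42%), in pro-B or pre-B-like cells (Hnrnpdl, 3%), in mature neutrophil-like cells (Hnrnpa1, 5.12%) and in late erythroid-like cells (Hnrnpa2b1, 19.2%). None of 60 was lower in basophil or mast-like cells (3.31%) or early erythroid-like cells (2.69%), and none of 55 in immature neutrophil-like cells (4.55%).

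The 3 higher values were Hnrnpll in T or NK-like cells, at 28.8 and 50.3 CPM (5.38% of all genes higher), Prpf38b in macrophage-like cells, at 48.1 and 84.3 CPM (5.92%), and Srsf1, the prototype SR protein gene, in stromal-like cells, at 58.2 and 114.1 CPM (8.51%). No member was higher in the other classes, where the share of all genes that was higher ran from 0.876% (early erythroid-like), 1.13% (immature neutrophil-like), 1.33% (pro-B or pre-B-like), 1.4% (granulocyte-monocyte progenitor-like), 1.89% (basophil or mast-like), 2.08% (mature B-like) and 2.35% (monocyte-like) to 3.9% (mature neutrophil-like), 4.31% (dendritic-like), 4.77% (late erythroid-like), 7.68% (megakaryocyte-like) and 11.3% (plasma cell-like).

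The families differed in this small shift. Of 133 Snrp values 130 lay below the class median (97.7%) and 19 were at least 1.5-fold lower (14.3%), whereas 42 of 118 Prpf values lay below it and 2 were lower (1.69%). In Sf3b 6 of 63 were lower (9.52%), in Srsf 8 of 120 (6.67%), in Hnrnp 12 of 266 (4.51%) and in Sf3a 1 of 26 (3.85%). Beside these, 6.22% of all genes' values were lower, so the Srsf, Hnrnp and Sf3a shares were near or below that of all genes. The genes of these families also differ in length, with median transcripts of 1204 bases for Snrp and 3129 for Prpf against 2648 for all genes, and the ratio of all genes moved with transcript length at a median Spearman rho of 0.524 over the classes. The shortest 25% of genes stood at -0.28 relative to all and the longest 25% at 0.18 (medians over classes). Against genes of like transcript length the Snrp median over classes went from -0.34 to -0.08 and the Prpf median from 0.07 to -0.01, and against genes of like genomic span the Snrp median went to -0.13. The Snrp median stayed below like genes in 12 of 14 classes by length and in 13 of 14 by span. The Prpf median was below in 6 and above in 6 of 12 classes by length, and above in 12 of 12 by span. The Sf3b median went from -0.21 to -0.14 against like length, below it in 14 of 14 classes, and the Srsf median from -0.17 to -0.11, below it in 13 of 14. Against like span the Sf3b median was -0.06, below in 10 and above in 3 of 14 classes. The Srsf median was then -0.002, below in 7 and above in 7. Ribosomal protein RNA, also short, was a lower share of UMIs in the DKO library in 13 of 15 classes. The part of gene length in the family differences was not tested further.

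**Figure D5:**
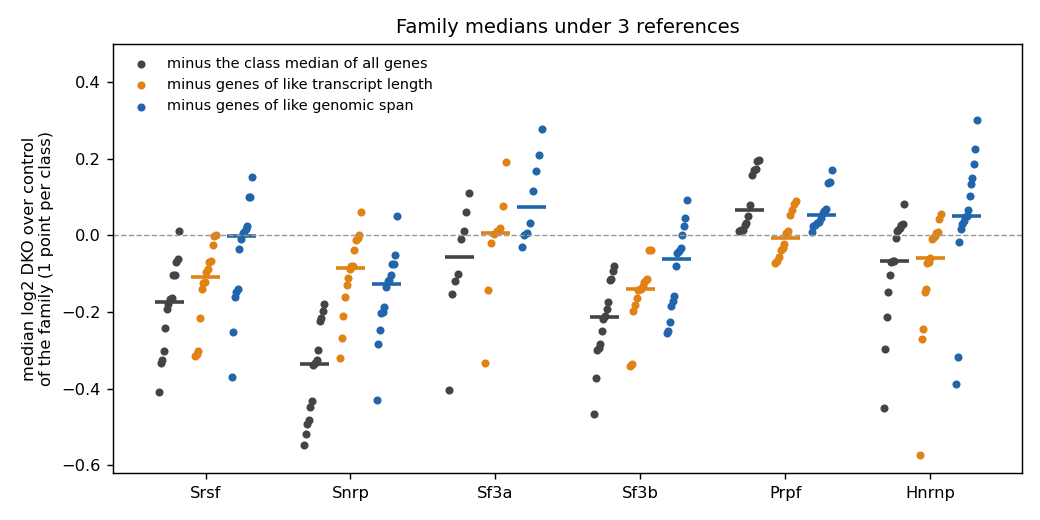
Median DKO to control log2 ratio of each family, 1 point per class and a bar for the median over classes, against all genes, against genes of like transcript length and against genes of like genomic span. The Snrp bar moves from -0.34 to -0.08 and -0.13, and the Prpf bar lies at 0.07, -0.01 and 0.05.

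Lower in at least 3 classes were 6 of 60 members, 10.0%, beside 6.18% of the 7460 genes so counted, and higher in at least 3 were none, beside 1.43%. Hnrnpdl, a paralog of the AU-rich element binding protein Hnrnpd, was lower in 6 classes and below the class median in all 12 in which it was counted. Its levels were 207.6 CPM (control) and 137.9 CPM (DKO) in granulocyte-monocyte progenitor-like cells (-0.69, -0.78 to -0.60 relative to the class median), 210.2 and 139.1 CPM in pro-B or pre-B-like cells (-0.68, -0.82 to -0.53), and 109 and 64.6 CPM in T or NK-like cells (-0.86, -1.18 to -0.56). In early erythroid-like cells it was 132.8 and 91.1 CPM (-0.52, -0.61 to -0.44). Hnrnpdl lies on chr5:100033577-100039664, minus strand, GRCm38.

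Srsf5, among the members higher in mature cells, was below the class median in the DKO library in all 15 classes, 1 of the 4 members counted in every class, where 23.3% of all such genes were so. The largest difference was in mature B-like cells, 268.3 CPM in control and 156.1 CPM in DKO cells (-0.90, -1.05 to -0.76). In T or NK-like cells it was 273.8 and 178.5 CPM (-0.73, -0.92 to -0.55), in early erythroid-like cells 235 and 193.7 CPM (-0.26, -0.32 to -0.19), and in late erythroid-like cells 47.5 and 29.9 CPM (-0.44, -0.55 to -0.32). Srsf5 lies on chr12:80945504-80950507, plus strand. Hnrnpa1, a splicing repressor gene, was below the median in 14 of 14 classes and lower in 4, for instance at 258.2 and 184.3 CPM in T or NK-like cells (-0.60, -0.79 to -0.42). Because Hnrnpa1 has many processed copies in the genome, how its reads were divided is uncertain, and the same holds for Snrpg and Snrpe.

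Snrpd1 was lower in 5 classes, at 170.7 and 123 CPM in monocyte-like cells (-0.60, -0.74 to -0.45) and at 142.1 and 92.7 CPM in T or NK-like cells (-0.73, -0.995 to -0.47). Snrpd2, its Sm partner, was lower in 3, at 180.1 and 130.1 CPM in monocyte-like cells (-0.59, -0.73 to -0.46). Sf3b5, of the U2 particle, was lower in 4, at 206.3 and 148.2 CPM in monocyte-like cells (-0.60, -0.73 to -0.47). In the other direction Prpf38b was above the class median in 13 of 13 classes, Hnrnpul1 in 13 of 14 and Hnrnpll in 8 of 8, with 1 value past 1.5-fold each for Prpf38b and Hnrnpll and none for Hnrnpul1.

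In mature B-like cells the lowest were Srsf5, the tri-snRNP gene Prpf31 at 34.9 and 22.2 CPM (-0.76, -1.17 to -0.38), Snrpa1 at 47.4 and 31.2 CPM (-0.72, -1.06 to -0.39) and the U1 gene Snrpc at 90 and 63.7 CPM (-0.62, -0.85 to -0.39). In mature neutrophil-like cells they were Hnrnpa1 at 27.9 and 15.7 CPM (-0.91, -1.22 to -0.60), Snrpd3 at 49.2 and 36.0 CPM (-0.53), Snrpe at 36.1 and 27.0 CPM (-0.50) and Snrpc at 66.0 and 49.6 CPM (-0.49). Highest there were Hnrnph1 at 54.3 and 77.8 CPM (0.44, 0.26 to 0.62) and Hnrnpc at 123.2 and 174.2 CPM (0.42, 0.30 to 0.54). In early erythroid-like cells the lowest after Hnrnpdl were Sf3b6 at 213.7 and 149.1 CPM (-0.50, -0.56 to -0.43) and Snrpa at 47.0 and 33.6 CPM (-0.46), and the highest Hnrnpm, Hnrnph1 at 98 and 122.9 CPM (0.35), Prpf3 at 22.8 and 28.5 CPM (0.34) and Srsf1 at 129.8 and 162.0 CPM (0.34). Snrpc was thus among the lowest in both mature classes, and Hnrnph1 among the highest in the erythroid and neutrophil classes.

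Among erythroid cells the difference between the libraries was small at early stages and larger at late ones. The median member was 0.04, 0.07 and 0.17 above all genes at stages 1, 2 and 3. At stages 4 and 5 it stood at -0.71 and -0.83, with 21 of 39 members lower at stage 4 (25.8% of genes) and 12 of 16 at stage 5 (26.4%), the stages in which the ceiling on free RNA was 60 and 80.3% in control cells beside 32.3 and 74.4% in DKO cells. The part of free RNA in the difference at these stages was not tested. In the late erythroid-like class as a whole, with the ceiling taken out, the sum of all members stood at -0.06 relative to all genes. By family, Snrp stood at -0.83, Srsf at -0.35, Sf3b at -0.32, Prpf at 0.04 and Hnrnp at 0.22. No Snrp, Sf3b or Prpf member passed the minimum level in this class. Only 14.1 (control) and 7.43 CPM (DKO) of the Snrp sum were left, and 5.27 and 3.95 CPM of the Sf3b sum, so these values are near the floor. Hnrnpm, whose protein binds GU-rich RNA, stood above the class median in both erythroid classes. Its levels in early erythroid-like cells were 192.6 CPM (control) and 255.0 CPM (DKO) (0.43, 0.37 to 0.49), and 27.9 and 33.7 CPM in late ones (0.50, 0.37 to 0.63). At stages 3 and 4 it was 238.5 and 408.8 CPM and 139.1 and 265.2 CPM outside hemoglobin, and with the free RNA ceiling taken out its difference in late erythroid-like cells was 0.73. By contrast Hnrnpa2b1, at 34.7 and 17.6 CPM (-0.75), and Hnrnpk, at 25.1 and 15.6 CPM (-0.45), stood at -0.13 and -0.18 once the ceiling was taken out, and Srsf5 at -0.49.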

How the data were processed

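The deposited values are raw UMI counts, made by the authors with Cell Ranger (7.1.0 per the file headers) and given per gene and barcode, with every barcode for the control library and called cells for the DKO library. The submitters' processing notes name mm10. Whether intronic reads were counted is not given in the sources used here.

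Control cells were called by a UMI threshold and, from 500 UMIs, a test against empty droplets (false discovery rate 0.01). Cells above 20% mitochondrial UMIs and doublets (356 control, 208 DKO) were removed. The doublet threshold of 0.226, set automatically in the DKO library, was used in both because the automatic control threshold marked 0 cells. Cells were clustered without the members (2000 variable genes, 30 components, 15 neighbors, Leiden resolution 1, scanpy 1.11.5, leidenalg 0.10.2), and clusters were named from marker lists and kept in a class with at least 50 cells in each library. Counts were summed per class and library. Log2 ratios had 1 count added to each sum and exact conditional binomial intervals, levels had exact Poisson intervals (scipy 1.17.1), and genes entered at a mean of 20 CPM and 100 UMIs over both libraries. With 1 library per genotype no test was made, and "lower" or "higher" between genotypes means past 1.5-fold of the class median. The scripts were tested on simulated data.

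The members and lists were chosen with earlier results of these data known. Named by rule were the 3 most abundant members per family, up to 5 members at each end in early and late erythroid-like, mature neutrophil-like and mature B-like cells and in late over early erythroid-like cells, members whose top class was at least 4 times the median class, members past 1.5-fold in at least 3 classes, and up to 2 genes at each end of each other list in late erythroid-like cells. Other members were named after their values were seen. The values of 1 member are not reported here, while sums and counts include it. The gene positions are GENCODE M21, GRCm38. No start region entry was found for, among others, Hnrnpll, Hnrnpul2, Prpf18, Sf3b4, Sf3b5, Snrpb and Snrpd1. Alternatives covered cell calling, doublets, clustering, scaling, minimum level and free RNA.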

Additional observations from a re-analysis of the deposited data

Results flagged for a closer look

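The shift of the members between the libraries had opposite signs in early and late erythroid-like cells, and the difference between the classes was not tested. Relative to all genes the median member stood at 0.0213 in early erythroid-like cells and -0.443 in late ones. The Prpf sum stood at 0.167 in early and -0.248 in late erythroid-like cells, and the Hnrnp sum at 0.0589 and -0.485. The upper estimate of free RNA in late erythroid-like cells of the control library was 67.9% of the members' UMIs, and with it taken out the late sums stood at 0.043 (Prpf) and 0.223 (Hnrnp), so that their signs no longer differed from those in early cells. With late erythroid cells taken as those of at least 50% hemoglobin UMIs the late member median was 0.0759.

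The empty droplets of the control library held the members at 8861.1 CPM. They were not compared as cells, but served to call the control cells and to set the free RNA ceilings. The values given with the ceiling taken out therefore rest on them.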

How the results depend on the processing

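With 1 library per genotype these values compare 2 mice, and the low levels of late erythroid-like cells limit what depth can show there. No paired analysis was possible because each genotype has 1 sample and no test was made. Under 17 alternatives, 4 of them chosen after seeing the data, 312 of the recomputed values stayed within the 95% order interval of the member or class values behind the median (ranges and counts within 1.5 times), 29 moved outside it, and 6 moved outside it across 0 from an interval that excluded 0. By sign alone 18 changed, 10 of them against genes of like genomic span. The cause was not tested for any of these. Against genes of like genomic span (added) the member median became -0.0743 in T or NK-like, 0.1 in dendritic-like, 0.107 in early erythroid-like, 0.0119 in granulocyte-monocyte progenitor-like, 0.0371 in immature neutrophil-like, -0.0327 in macrophage-like, 0.000874 in mature B-like, 0.0281 in monocyte-like, 0.0636 in pro-B or pre-B-like and 0.0718 in stromal-like cells, with 21 values lower and 13 higher. The family medians were then -0.00237 (Srsf), -0.128 (Snrp), -0.0626 (Sf3b) and 0.0505 (Hnrnp). Against genes of like transcript length (added) the dendritic-like median was 0.0377, Snrp -0.0842 and Prpf -0.00776. At Leiden resolution 2 the basophil or mast-like median was -0.276, and at 0.5 the megakaryocyte-like median was -0.425 and the DKO range between classes 28.3-fold. With cells called by the UMI threshold alone the macrophage-like median was -0.417 and 0 values were higher. With means over cells the plasma cell-like median was 0.0346, 23 values were higher, Prpf was 0.00334 and the DKO range 32.9-fold. The late over early erythroid-like median was -1.36 (DKO) at a minimum of 50 CPM, and -1.95 (control) and -2.23 (DKO) with the free RNA ceiling taken out. The range between classes was 4.78-fold (control) and 6.59-fold (DKO) outside hemoglobin, and 19.5-fold and 18.1-fold with cells of at least 50% hemoglobin as late erythroid. Single members were recomputed only for the 6 lower in at least 3 classes, and all 78 of their medians over classes kept their sign. These members were picked from the same data for values far from 0, so this does not speak for the other members.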

Other observations

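Other parts of the splicing machinery were read from hand-written lists in the classes where at least 3 genes of a list passed the minimum level. The median of the 10 LSm genes, which encode the Sm-like rings of U6 and of mRNA decay, lay below that of all genes in 12 of 12 classes, from -0.64 to -0.19, and 22 of 94 gene-by-class values were at least 1.5-fold lower (23.4%) beside 6.22% of all genes' values. The exon junction complex, deposited on spliced mRNA, was below in 12 of 12 classes with 14 of 97 values lower (14.4%), and the SMN complex, which loads Sm rings onto snRNA, in 10 of 10 with 1 of 55 lower (1.82%). Proteins of the U1, U2, U4/U6, U5 and minor particles outside the families were below in 11 of 12 classes with 9 of 143 lower (6.29%), and splicing helicases and complex proteins in 11 of 13 with 16 of 286 lower (5.59%). By contrast the SR-related proteins and SR protein kinases lay above the median of all genes in 14 of 14 classes, by 0.02 to 0.15, with 1 of 244 values lower and 2 higher, and other splicing regulators above in 12 of 15. Ribosomal protein genes lay below in 15 of 15 classes. The ratio of all genes moved with transcript length (median Spearman rho 0.524 over the classes). These lists were not set against genes of like length or span, so the part of gene length in their differences was not tested.

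In late erythroid-like cells few genes of these lists passed the minimum level. Rbm38, an RNA-binding regulator of erythroid splicing, stood at 117.5 CPM (control) and 123.3 CPM (DKO), 0.30 above the class median, and Clk1, a kinase of SR proteins, at 41.0 and 41.1 CPM, 0.23 above it. Rbm3 stood at 27.9 and 14.5 CPM, -0.71 relative to the class median, Syf2 at 29.0 and 15.3 CPM (-0.69) and Snrnp25 of the minor spliceosome at 32.9 and 19.5 CPM (-0.52). Acin1 of the exon junction complex, at 27.9 and 29.3 CPM, was 0.30 above the class median. Mbnl1 stood at -0.44, Rbm39 at -0.17 and Ptbp3 at -0.05. In this class 19.2% of all genes were at least 1.5-fold lower than the class median. The ceiling on free RNA was not worked out for these list genes, so its part in their differences was not tested.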
